A study of Mus musculus with 8 samples.

Results

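The Eph receptors and ephrins studied here were 10 genes of the deposited count table, chosen by name as positioning cues of crypt cells that depend on β-catenin. They were the receptors Ephb2, Ephb3, Ephb4, Ephb6, Epha1, Epha2 and Epha4 and the ligands Efnb1, Efnb2 and Efna1, among 53801 genes in all. RNA was measured in Paneth cells sorted from the small intestine of 4 β-catGOF; Mll1+/- mice (controls 1 to 4) and 4 β-catGOF; Mll1-/- mice (knockouts 1 to 4), with 1 library per mouse. All mice of both groups carried the Lgr5-EGFP-IRES-CreERT2 driver and the β-catenin deltaEx3 allele, which loses exon 3 on recombination and yields a stabilised β-catenin. The groups differed in whether 1 or both alleles of Mll1, a histone H3 lysine 4 methyltransferase encoded by Kmt2a, were floxed. Tamoxifen was given at 4 to 6 wk of age as 3 injections of 1 mg on consecutive days per the labels, and viable EpCAM+ Cd24+ cells were sorted 10 d after induction. The genotypes follow the figure legends and labels of the study, whereas its paragraph on sorting names littermates without the β-catenin allele.

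The Lgr5 promoter drives the recombinase in crypt base stem cells. The study examined Mll1 protein in crypts of both genotypes by immunohistochemistry, which was not analysed here. The comparison asks whether loss of Mll1 in Paneth cells with high Wnt signalling went together with a change in the cues that hold these cells at the crypt base.

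Eph receptors are receptor tyrosine kinases, and ephrins are their ligands on the surface of neighbouring cells. A-type ephrins are held by a lipid anchor and B-type ephrins span the membrane, and each class mainly binds receptors of its own letter, with Epha4 also binding ephrin-Bs. Contact signals in both directions, into the receptor cell and, from ephrin-Bs, into the ligand cell, and commonly makes the cells repel or detach. In the intestine β-catenin/Tcf keeps Ephb2 and Ephb3 high towards the crypt base and ephrin-Bs low there, and mice without Ephb3 have Paneth cells scattered out of the base. Up to 250 bases upstream of the annotated start of Ephb2, Ephb3 and Efnb1 are given because these are the receptors of that gradient and the ligand with the lowest unadjusted p among the members. They are RefSeq sequences of GRCm38.p6, written in lower case 5′ to 3′ on the strand of the gene. The RefSeq start of Ephb3 lies 40 bases downstream of the start in the Ensembl annotation, and these 40 bases are left out. Ephb2 lies on the minus strand at chr4:136836013-136836262, Ephb3 on the plus strand at chr16:21204545-21204754, and Efnb1 on the plus strand at chrX:99135811-99136060.
Ephb2: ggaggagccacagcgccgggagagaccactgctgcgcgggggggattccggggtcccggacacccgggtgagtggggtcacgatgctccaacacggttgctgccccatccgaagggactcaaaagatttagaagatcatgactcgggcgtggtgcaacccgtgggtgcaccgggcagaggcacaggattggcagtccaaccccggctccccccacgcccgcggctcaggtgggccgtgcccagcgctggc
Ephb3: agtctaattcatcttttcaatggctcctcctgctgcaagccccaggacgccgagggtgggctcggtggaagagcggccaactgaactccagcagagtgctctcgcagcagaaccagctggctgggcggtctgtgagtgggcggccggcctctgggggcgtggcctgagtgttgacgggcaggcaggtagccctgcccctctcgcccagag
Efnb1: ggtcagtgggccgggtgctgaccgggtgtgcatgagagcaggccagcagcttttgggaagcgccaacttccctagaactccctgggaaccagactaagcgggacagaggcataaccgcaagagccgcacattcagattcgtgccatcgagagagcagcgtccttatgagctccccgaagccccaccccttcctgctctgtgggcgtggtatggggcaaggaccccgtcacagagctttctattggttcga
These stretches are rich in G and C, with 68.4% in Ephb2, 65.2% in Ephb3 and 60.0% in Efnb1, and they hold 20, 11 and 13 CpG dinucleotides. All 10 genes had a promoter window in RefSeq (250 bases before to 50 after the start), and Efna1 had 2. A Tcf/Lef core motif, CTTTGAT or its reverse complement ATCAAAG, was found in 0 of these 11 windows and in 3.73% of all 32851 windows. The absence of these letters says nothing about binding of Tcf factors to the genes, since enhancers and other spellings were not searched.

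Totals per library lay between 13037832 and 14380240 counts. Knockout 3 stood apart: 19662 genes had a count in it, against 22623 to 26074 in the other 7 libraries, its TMM factor (the scaling of library size) was 0.632 against 0.822 to 1.34, and 2.04% of its counts were mitochondrial against 3.26% to 8.78%. It had 0 counts for 55 tested genes that had at least 20 counts in each other library, whereas no other library had such a gene. For the members and for results that moved with it, values without it are given below. The 10 Paneth cell markers, lysozyme Lyz1 and α-defensins among them, summed to 267100 to 549900 normalized CPM (counts scaled to the library size after TMM correction) in the controls. In the knockouts the sum was 731000 in knockout 3 and 253200 to 323100 in the other 3. The low TMM factor of knockout 3 scales up all its normalized CPM, and the sums per total counts were not compared. With edgeR 0 of 10 markers were called or had an unadjusted p below 0.05. Without knockout 3 again 0 were called, and 4 of 10 (Itln1, Defa17, Mptx2 and Cd24a) were lower at an unadjusted p under 0.05, where 11.3% of the 14086 genes tested without it reached that p. Kmt2a counts over the whole gene gave 45.1, 37.2, 24.1 and 22.4 normalized CPM in controls 1 to 4 and 31.1, 25.7, 38.5 and 28.4 in knockouts 1 to 4. A count over the whole gene does not separate the deleted part from the rest of the transcript, so these counts check no label.

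In none of the tested Eph receptors and ephrins was a difference between the genotypes detected beyond the spread between mice. To be called, a gene needed an adjusted p no higher than 0.05 (edgeR's quasi-likelihood test, Benjamini-Hochberg) together with a log2 fold change no smaller than 0.5 in size. Of the 10 members 9 passed the filter on low counts, and 0 of these 9 were called, where 0.186% of all 13439 tested genes were (25 genes, 21 of them up and 4 down). Without knockout 3 the members called remained 0, while 152 genes were called overall. Likewise 0 of 9 had an unadjusted p below 0.05, against 6.88% of all tested genes, and 0 were called by DESeq2's Wald test or by limma-voom. On the TMM-scaled values, in 0 of 9 did the knockouts lie entirely above or below the controls, against 4.52% of all genes. The members' log2 fold changes (knockout minus control) were above 0 in 5 and below 0 in 4, with a median of 0.04 beside 0.01 over all tested genes.

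**Figure D1:**
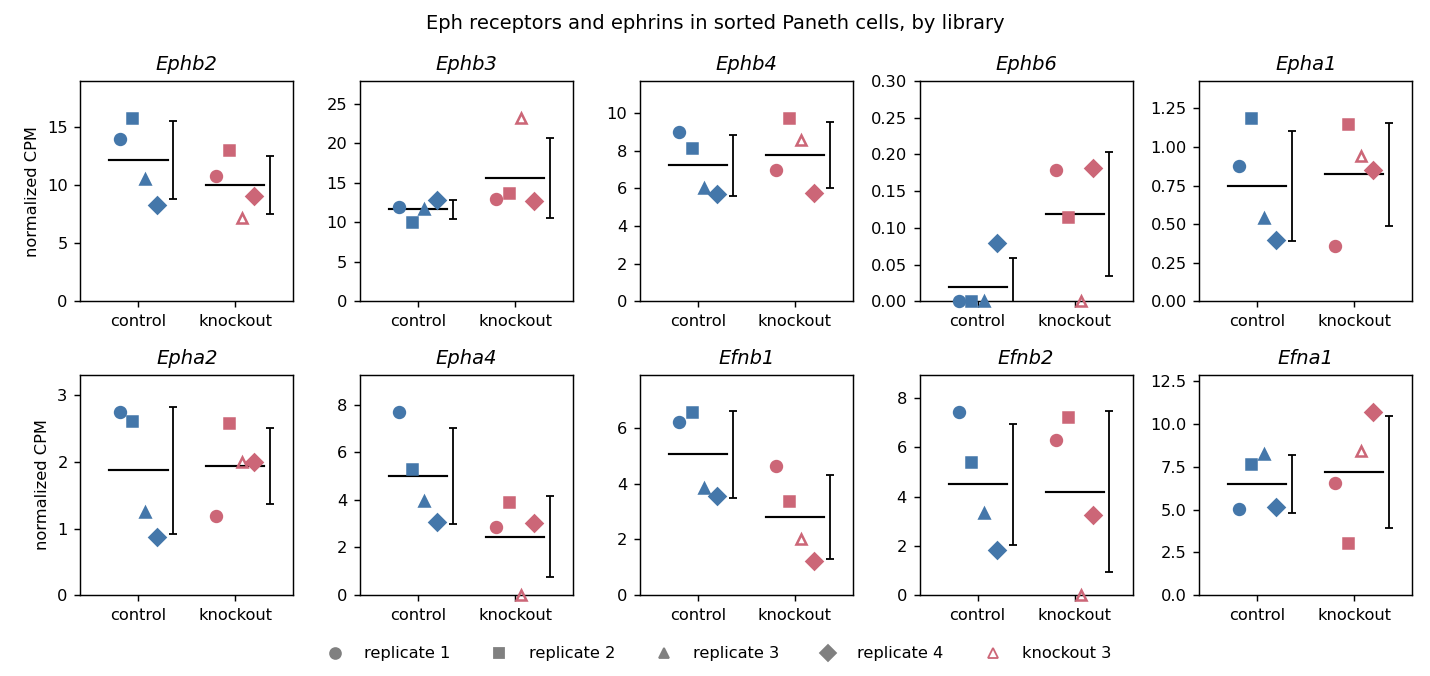
Normalized CPM (vertical axes, each from 0 and of its own scale) of the 10 members in the 4 controls (blue) and the 4 knockouts (red), with knockout 3 as an open triangle, the mean as a line and the SD as a bar. In each tested member the points of both groups overlap, and knockout 3 is highest for Ephb3 and at 0 for Epha4 and Efnb2.

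Ephb2 and Ephb3 are the receptors that sort crypt cells along the axis. Ephb2 (ENSMUSG00000028664, mm10 chr4:136647539-136835988, minus strand) measured 13.98, 15.8, 10.5 and 8.29 normalized CPM in controls 1 to 4 and 10.8, 12.98, 7.17 and 9.04 in knockouts 1 to 4. These came from 61 to 226 counts a library, and the groups overlapped over most of their range. The mean was 12.1 ± 3.38 (SD, n = 4) in the controls and 10.0 ± 2.48 (SD, n = 4) in the knockouts. The log2 fold change of Ephb2 was -0.28 (SE 0.27, 95% interval -0.86 to 0.31, edgeR adjusted p = 0.939), so that the interval runs from 0.55-fold to 1.24-fold. The data thus leave room for a fall of that size in Ephb2, and for a small rise, but a larger fall lies outside the interval. Without knockout 3 the log2 fold change of Ephb2 was -0.15 (edgeR adjusted p = 0.871), and without TMM factors it was 0.01.

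Ephb3 (ENSMUSG00000005958, chr16:21204755-21223305, plus strand) is the receptor whose loss misplaces Paneth cells. Its controls measured 11.97, 10.1, 11.7 and 12.9 normalized CPM and its knockouts 12.95, 13.8, 23.3 and 12.7. Relative to its mean Ephb3 varied least of the members among the controls, and in the knockouts all libraries but knockout 3 were close to the highest controls. The counts behind these values were 191, 127, 130 and 163 in the controls and 218, 240, 198 and 209 in the knockouts, so that knockout 3 had the fewest Ephb3 counts of the knockouts. Its high normalized CPM goes with its low TMM factor. Per total counts, without TMM factors, Ephb3 measured 9.22 to 13.75 CPM in the controls and 14.71 to 18.4 in the knockouts, with every knockout above every control. It was the single tested member whose groups were apart on that scale, against 4.33% of all tested genes (531 with every knockout above every control and 51 with every knockout below), and an edgeR fit without TMM factors, added after the data were seen, gave a log2 fold change of 0.57 (unadjusted p = 0.0463, edgeR adjusted p = 0.745). In that fit the median over all tested genes was 0.25. The mean was 11.7 ± 1.16 (SD, n = 4) in the controls and 15.7 ± 5.08 (SD, n = 4) in the knockouts, and the log2 fold change was 0.42 (SE 0.24, 95% interval -0.09 to 0.94, edgeR adjusted p = 0.827). An exact two-sided permutation test over the 70 arrangements of the libraries gave p = 0.0571, where the smallest p this design allows is 0.0286. Without knockout 3 the log2 fold change of Ephb3 was 0.17 (edgeR adjusted p = 0.789). The ratio of Ephb2 to Ephb3, each per kb of exon, was 0.58, 0.78, 0.45 and 0.32 in the controls and 0.42, 0.47, 0.15 and 0.36 in the knockouts (exact permutation p = 0.257). The ranges of this ratio overlapped between the groups, and it was lowest in knockout 3.

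Ephb4 (ENSMUSG00000029710, chr5:137350109-137378669, plus strand), best known as the receptor of venous endothelium and also expressed by crypt epithelium, had similar means in the groups. Its controls measured 9.03, 8.17, 6.01 and 5.68 normalized CPM and its knockouts 7.01, 9.76, 8.58 and 5.76. The log2 fold change was 0.10 (SE 0.26, 95% interval -0.48 to 0.68, edgeR adjusted p = 0.987), and 0.05 without knockout 3 (edgeR adjusted p = 0.966). Of 10 endothelial markers Pecam1 and Esam passed the filter, with 41 to 85 and 1 to 73 counts a library, while Kdr, Tie1, Emcn and Cldn5 had at most 3 counts in every library, Cdh5 and Eng at most 8 and 4, and Tek and Plvap at most 13 each. The sort had taken EpCAM+ cells, and EpCAM marks epithelium. The 10 summed to 9.47 to 11.1 normalized CPM in the controls and 6.81 to 9.03 in the knockouts. Ephb6 (ENSMUSG00000029869, chr6:41605482-41620509, plus strand), a receptor without kinase activity, had 0, 0, 0 and 1 counts in the controls and 3, 2, 0 and 3 in the knockouts. It stayed at or under the floor of 3 counts, which corresponds to 0.172 to 0.352 normalized CPM, so no fold change is given.

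Among the A-type receptors Epha4 had the lowest log2 fold change of all members, and this rested in part on knockout 3. Epha4 (ENSMUSG00000026235, chr1:77367185-77515088, minus strand) measured 7.71, 5.32, 3.95 and 3.08 normalized CPM in the controls and 2.85, 3.90, 0 and 3.03 in the knockouts. Knockout 3 had 0 counts where the other 7 libraries had 39 to 123, and 3 of the 4 knockouts lay below every control. The mean was 5.01 ± 2.02 (SD, n = 4) in the controls and 2.45 ± 1.70 (SD, n = 4) in the knockouts, and the log2 fold change was -0.997 (SE 0.67, 95% interval -2.47 to 0.47, edgeR adjusted p = 0.883). An exact two-sided permutation test gave p = 0.0571 for Epha4, the same as for Ephb3. Without knockout 3 the log2 fold change of Epha4 was -0.63 (SE 0.34, edgeR adjusted p = 0.534). Epha1 (chr6:42358487-42373268, minus strand) and Epha2 (chr4:141301240-141329384, plus strand), epithelial receptors of ephrin-As, were low in both groups. Epha1 measured 0.39 to 1.19 normalized CPM in the controls and 0.36 to 1.15 in the knockouts, from 5 to 20 counts, with a log2 fold change of 0.12 (95% interval -1.09 to 1.33). Epha2 measured 0.87 to 2.76 in the controls and 1.19 to 2.58 in the knockouts, from 11 to 45 counts, with a log2 fold change of 0.04 (95% interval -0.995 to 1.08). Without knockout 3 these were 0.06 for Epha1 and 0.03 for Epha2. At these counts a 2-fold rise of either gene lies within the interval. Of the exon bases of Epha1, 6.01% overlap Zyx on the opposite strand, and reads there cannot be told apart if the counting ignored strand.

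Of the ligands, Efnb1 was lower on average in the knockouts but did not pass the test. Efnb1 (ENSMUSG00000031217, chrX:99136130-99148991, plus strand), an ephrin-B that binds Ephb2 and Ephb3, measured 6.21, 6.59, 3.86 and 3.55 normalized CPM in controls 1 to 4 and 4.63, 3.39, 2.00 and 1.21 in knockouts 1 to 4. Knockout 1 lay between the controls, and the other 3 knockouts lay below all of them. The mean was 5.05 ± 1.57 (SD, n = 4) in the controls and 2.81 ± 1.51 (SD, n = 4) in the knockouts, and the log2 fold change was -0.84 (SE 0.43, 95% interval -1.77 to 0.10, edgeR adjusted p = 0.788). An exact two-sided permutation test gave p = 0.114. The value stayed below 0 with each library left out in turn, between -1.19 and -0.58, and was -0.72 without knockout 3.

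Efnb2 (ENSMUSG00000001300, chr8:8617434-8661242, minus strand), the other ephrin-B among the members and the marker of arterial endothelium, varied more between mice than between genotypes. It measured 7.46, 5.40, 3.32 and 1.82 normalized CPM in the controls and 6.30, 7.24, 0 and 3.28 in the knockouts. Knockout 3 again had 0 counts, where the other libraries had 23 to 126. The log2 fold change was -0.08 (SE 0.76, 95% interval -1.74 to 1.59, edgeR adjusted p = 0.997), and without knockout 3 it turned to 0.31. Efna1 (ENSMUSG00000027954, chr3:89271733-89281142, minus strand), an ephrin-A, measured 5.01, 7.70, 8.26 and 5.13 normalized CPM in the controls and 6.53, 3.04, 8.46 and 10.7 in the knockouts. The knockouts held both the lowest and the highest value, and the log2 fold change was 0.14 (SE 0.37, 95% interval -0.66 to 0.94, edgeR adjusted p = 0.987), and 0.05 without knockout 3 (edgeR adjusted p = 0.977).

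**Figure D2:**
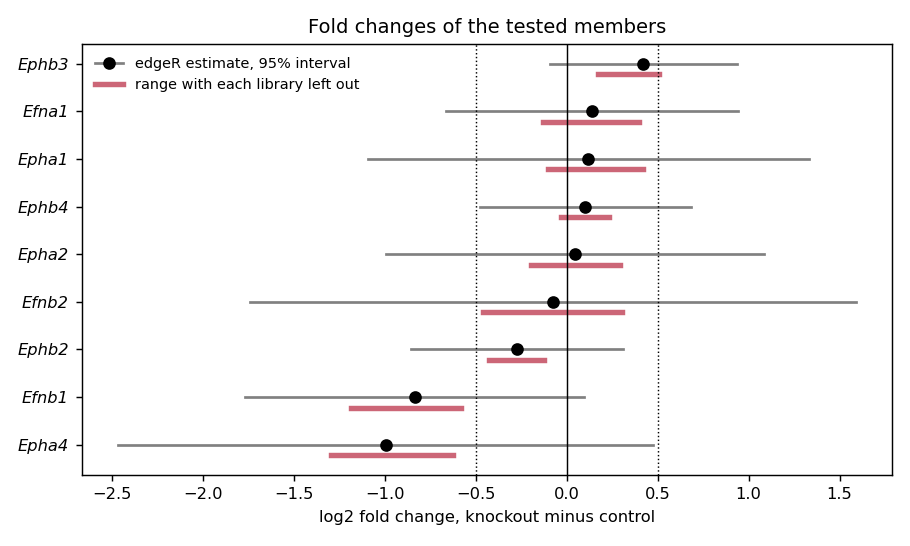
Log2 fold change, knockout minus control (horizontal axis), of the 9 tested members, with the edgeR estimate as a point, its 95% interval in grey and, in red, the range of estimates with each of the 8 libraries left out; dotted lines mark 0.5 in size. Each interval includes 0, those of Epha4 and Efnb2 are the widest, and the red ranges of Ephb4, Epha1, Epha2, Efnb2 and Efna1 cross 0.

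Levels of different genes were compared per length, as normalized CPM per kb of exon. In the median over the 8 libraries the order was Efna1 (3.89, range 1.66 to 5.87), Ephb3 (2.03, 1.602 to 3.70), Ephb4 (1.64, 1.23 to 2.10), Efnb1 (1.07, 0.35 to 1.91), Ephb2 (0.85, 0.57 to 1.25), Efnb2 (0.64, 0 to 1.09), Epha4 (0.43, 0 to 0.96), Epha2 (0.43, 0.19 to 0.59), Epha1 (0.22, 0.09 to 0.30) and Ephb6 (0.01, 0 to 0.05). Neighbours in this order overlapped over the libraries in each case except Epha1 and Ephb6. Ephb2 had the highest mean CPM of the members in the controls, yet it is also the longest, with 12608 exon bases against 6289 for Ephb3, and per kb 4 members lay above it in the median over all libraries and in that of the controls. In the median of the knockouts 3 did, since Efnb1 (0.78) and Ephb2 (0.79) lay close together there, against 1.46 and 0.97 in the controls. Epha4 likewise lay above Epha2 in the controls (0.58 and 0.41) and below it in the knockouts (0.37 and 0.43). Within each library Efna1 lay above Ephb3 in 7 of 8 and Ephb3 above Ephb4 in 6 of 8. The 4 EphB receptors summed to 3.95 to 4.96 per kb in the controls and 4.02 to 6.12 in the knockouts, the 3 EphA receptors to 0.67 to 1.77 and 0.67 to 1.33, and the 3 ephrins to 4.10 to 6.90 and 3.70 to 6.70. Each of these sums overlapped between the genotypes.

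**Figure D3:**
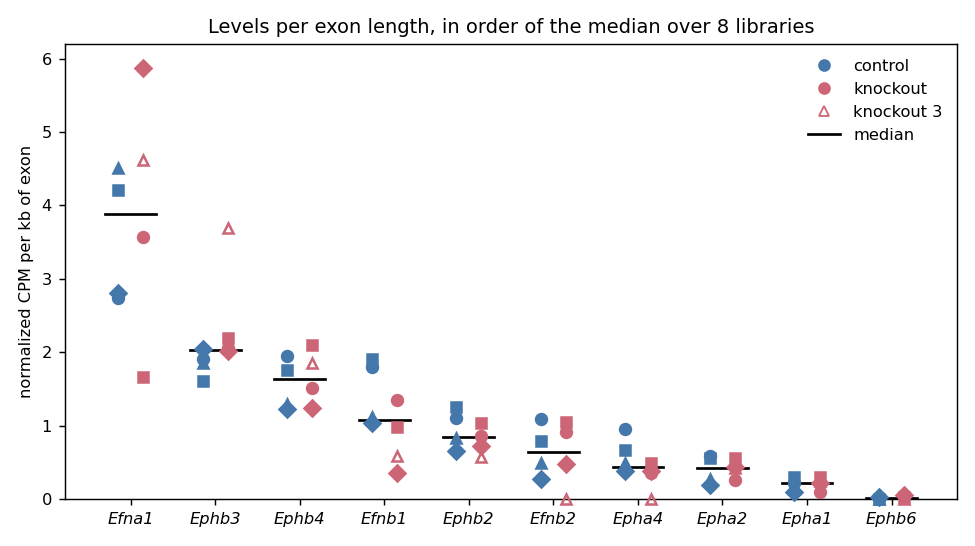
Normalized CPM per kb of exon (vertical axis) of each member, ordered by the median over all 8 libraries (black line), in controls (blue) and knockouts (red), with knockout 3 as an open triangle. Efna1 spans 1.66 to 5.87 and overlaps Ephb3, and the points of most neighbouring genes overlap.

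Ephb2 and Efnb2 separated the libraries by the numbers in their labels and not by genotype. The numbers in the labels were split here by size into 2 runs, with controls 1 and 2 and knockouts 1 and 2 in run 1 and the others in run 2. The labels name no runs and do not say what the numbers stand for. Ephb2 measured 10.8 to 15.8 normalized CPM in run 1 and 7.17 to 10.5 in run 2, and Efnb2 5.40 to 7.46 in run 1 and 0 to 3.32 in run 2. In both genes every library of run 1 lay above every library of run 2, so 2 of the 9 tested members did so, against 3.32% of all tested genes. The mean was higher in run 1 for 7 of the 9, the exceptions being Ephb3 and Efna1. Since each run held 2 mice of either genotype, the genotypes could be compared within runs, on the log2(normalized CPM + 1) scale. The difference of knockout minus control for Ephb2 was -0.30 in run 1 and -0.19 in run 2, for Ephb3 0.26 and 0.46, for Epha4 -0.77 and -1.16, and for Efnb1 -0.57 and -0.87. These 4 kept their sign in both runs, whereas Ephb4 (-0.05 and 0.23), Epha1 (-0.25 and 0.37), Epha2 (-0.40 and 0.55), Efnb2 (0.08 and -0.75) and Efna1 (-0.39 and 0.48) did not. Without knockout 3 the difference in run 2 was -0.04 for Ephb2, 0.05 for Ephb3, -0.16 for Epha4 and -1.09 for Efnb1. It was -0.02 for Ephb4 and 0.29 for Efnb2, which then had the sign of run 1, and 0.34 for Epha1, 0.55 for Epha2 and 0.64 for Efna1, which did not. With the run as a term in the edgeR model 0 of 9 members were called.

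Efnb1 moved with the markers of tuft cells, which are chemosensory cells of the epithelium that also carry Cd24. Of the 4 tuft markers Dclk1, Trpm5, Avil and Il25, 3 were tested and 0 were called or had an unadjusted p below 0.05 with edgeR, all 3 with a log2 fold change below 0 (Dclk1 -1.09, Trpm5 -0.95 and Avil -0.68). The markers summed to 268, 314, 148 and 108 normalized CPM in controls 1 to 4 and to 205, 119, 63.9 and 53.2 in knockouts 1 to 4. The order of the libraries by Efnb1 was the order by this sum, except that control 4 and knockout 2 changed places. Pearson's r with the tuft sum was 0.98 for Efnb1, 0.83 for Ephb2, 0.68 for Epha4 and 0.66 for Efnb2. For the other tested members it lay between -0.63 (Ephb3) and 0.33 (Ephb4). The members were also correlated with the Paneth, stem, enteroendocrine and endothelial sums. The tuft sum was 119 to 314 in run 1 of the label numbers and 53.2 to 148 in run 2. Efnb1 per 100 CPM of tuft markers was 2.09 to 3.30 in the controls (median 2.46) and 2.26 to 3.13 in the knockouts (median 2.57), a ratio formed after its values were seen, so that it is a description with no test. In bulk RNA, fewer cells of a type and less RNA per cell cannot be told apart.

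**Figure D4:**
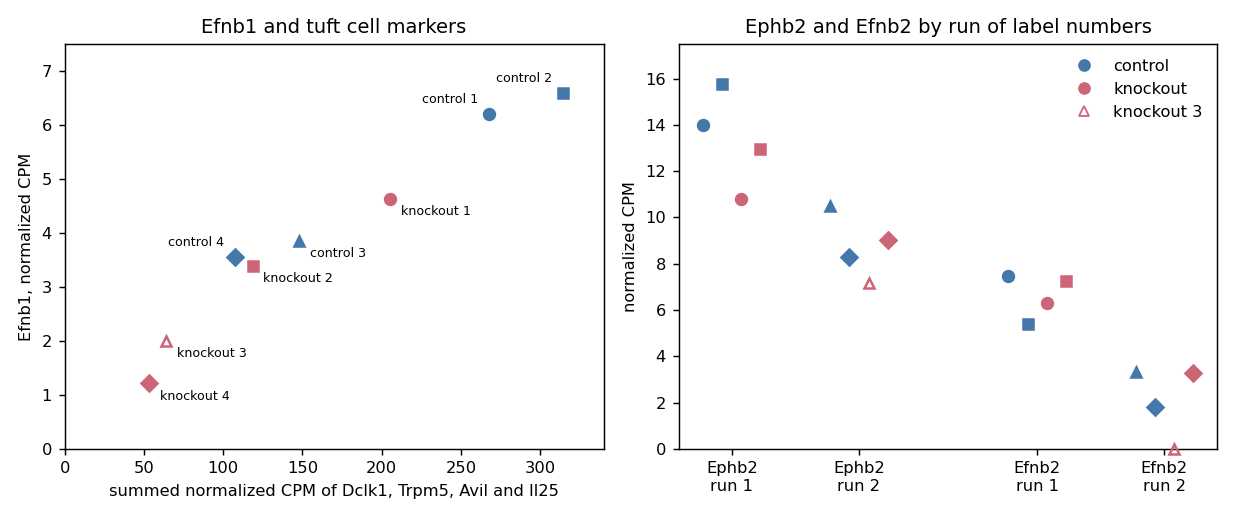
Left, Efnb1 against the summed tuft markers, both in normalized CPM, in each library; right, normalized CPM of Ephb2 and Efnb2 in each library by run of label numbers, in controls (blue) and knockouts (red), with knockout 3 as an open triangle. Efnb1 is highest in controls 1 and 2 and lowest in knockouts 3 and 4, as is the tuft sum, and for Ephb2 and Efnb2 all points of run 1 lie above those of run 2.

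The genes with the pattern most like Efnb1 over the 8 libraries, by Pearson's r of log2(normalized CPM + 1), were Vav1 (0.99), Dclk1 (0.98), Alox5ap, Bmx and Strip2 (each 0.98), and r stayed between 0.97 and 0.99 without knockout 3. For Ephb2 they were Zcchc2 (0.99), Plgrkt, Gm6867, Ap1s3 and Tmem256 (0.96 to 0.97). For Ephb3 they were Cops7a (0.98), 4930523C07Rik, Mtmr10, Gm36401 and Tsnax (each 0.97). Without knockout 3 the values for Ephb3 lay between 0.83 and 0.89. Among the members themselves r was 0.93 for Epha1 with Epha2, -0.71 for Ephb2 with Ephb3 (-0.53 without knockout 3), 0.85 for Ephb2 with Efnb2, and -0.92 for Ephb3 with Epha4 (-0.51 without knockout 3). These are descriptions over 8 libraries that share runs and scaling.

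Of the rest of the family few genes passed the filter. Of 12 other Eph and ephrin genes 3 passed the filter and 0 were called or had an unadjusted p below 0.05 with edgeR. The log2 fold change was -0.88 for Epha5 (edgeR adjusted p = 0.849), -0.53 for Epha7 (edgeR adjusted p = 0.970) and -0.16 for Efna4 (edgeR adjusted p = 0.986), so that the median was -0.53. Without knockout 3 they were -0.86, -0.23 and -0.49, with 0 called. Efna4, an ephrin-A, had 32 to 71 counts in every library and measured 3.62 ± 1.04 normalized CPM (SD, n = 4) in the controls and 3.29 ± 1.49 (SD, n = 4) in the knockouts. Per kb of exon its median was 1.94, a level between those of Ephb3 and Ephb4, and 10.5% of its exon bases overlap 4731419I09Rik on the opposite strand. Ephb1, an EphB receptor, was not tested. It had 37 counts in control 3, 5 in control 2, 2 in knockout 2 and 0 in the other 5 libraries. Only with no filter on low counts was Ephb1 called, a result that rests on the single library control 3.

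Partners of Eph signalling were described from a list of 45 genes of sheddases, adaptors, regulators of the cytoskeleton, kinases and phosphatases. Of the 45, 42 were tested and 0 were called by edgeR or under any of the 19 alternatives, 3 had an unadjusted p under 0.05 (7.14%, against 6.88% of all tested genes), and the median log2 fold change was 0.08. Anks1, an adaptor of Eph receptors, had a log2 fold change of -0.79 (edgeR adjusted p = 0.670). Adam10, a protease that sheds ephrins and E-cadherin after Eph contact, measured 20.8 ± 4.45 normalized CPM (SD, n = 4) in the controls and 33.0 ± 12.8 (SD, n = 4) in the knockouts, and the log2 fold change was 0.67 (edgeR adjusted p = 0.671). Ctnnb1, which encodes β-catenin, had a log2 fold change of 0.63 (edgeR adjusted p = 0.680), and 14.6% of its exon bases overlap Ulk4 on the opposite strand. None of these 3 passed the test over all genes. When knockout 3 was left out, the log2 fold changes were -1.12 for Anks1, 0.88 for Adam10 and 0.81 for Ctnnb1 (edgeR adjusted p of 0.0916, 0.0738 and 0.151), and 0 of 43 partners tested were called. The next by p were Pak1 (log2 fold change 0.39), a kinase downstream of Rac, Rhoa (-0.36), the GTPase of cell contraction, and Fyn (0.45), a Src family kinase that was the single partner whose groups did not overlap, with every knockout above every control, where 4.52% of all tested genes had groups apart.

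Among other targets of β-catenin/Tcf, Notum and Nkd1 rose in the knockouts. Of 18 such genes 17 were tested, these 2 were called (0.186% of all tested genes were), and 11 had an unadjusted p under 0.05 (64.7%, against 6.88% of all tested genes), 10 of them higher and Ascl2 lower. The called became 6 without knockout 3, among them Prox1, Dkk3 and Tnfrsf19, where 1.08% of all genes tested without it were called. Notum, a secreted Wnt deacylase, measured 0.58 ± 0.31 normalized CPM (SD, n = 4) in the controls and 17.0 ± 5.11 (SD, n = 4) in the knockouts, and the log2 fold change was 4.89 (edgeR adjusted p = 0.000189). Of its exon bases 29.4% overlap Notumos on the opposite strand. Nkd1, an inhibitor of Dishevelled, measured 6.34 ± 1.22 and 38.3 ± 6.51 normalized CPM (SD, n = 4 each), and its log2 fold change was 2.60 (edgeR adjusted p = 0.000189). Prox1 (log2 fold change 2.12), Dkk3 (2.54), Tnfrsf19 (1.36) and Rnf43 (0.87) followed by p, with edgeR adjusted p between 0.101 and 0.272, and did not pass with all libraries. The log2 fold change of Notum was 5.04 without knockout 3 and that of Nkd1 was 2.70. The median of the 17 was 0.90, beside log2 fold changes of -0.28 for Ephb2 and 0.42 for Ephb3, whose 95% intervals end at 0.31 and 0.94. The list of targets was written with earlier results of these data known, so its shares and its median are a description of the list only. The difference between these lists was not tested.

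**Figure D5:**
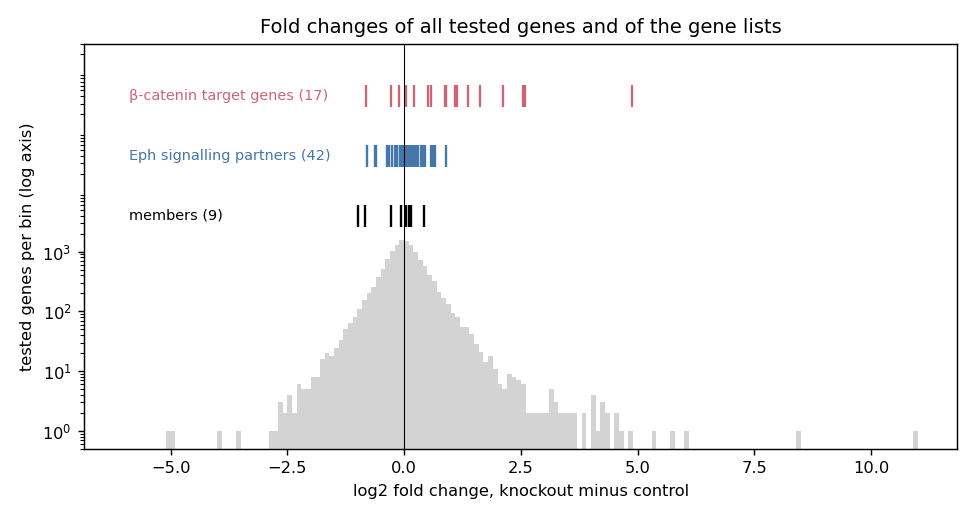
Number of tested genes (vertical axis, log scale) in bins of the log2 fold change, knockout minus control, with ticks for each tested gene of the members, the partners and the β-catenin targets above. The members lie between -0.997 and 0.42, the partners centre near 0, and the targets reach 4.89 at Notum.

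The sums of markers of other cells also moved with the groups or libraries. The 6 stem cell markers summed to 716 to 1523 normalized CPM in the controls, 268 in knockout 3 and 613 to 940 in the other 3 knockouts. On average Olfm4 was the largest part of this sum, with mean normalized CPM of 873.6 (controls) and 404.9 (knockouts). Lgr5 and Smoc2 barely moved, with log2 fold changes of 0.045 and -0.049, and that of Cdca7 was -0.447. The fall of the sum was thus not shared by all 6 markers. Of the 6, 0 were called and 3 (Olfm4, Ascl2 and Slc12a2) were lower at an unadjusted p under 0.05, and 2 of 6 without knockout 3. Of 5 enteroendocrine markers 0 were called and all 5, Neurod1 (log2 fold change -2.27) and Chga (-1.98) among them, were lower at that level, with knockout 3 or without it. They summed to 115 to 343 in the controls, 134 in knockout 3 and 18.03 to 94.4 in the other knockouts. Of 6 enterocyte markers 5 were tested and 0 called, and Fabp2 (-1.07) and Sis (-1.44) were lower at an unadjusted p under 0.05, of which Fabp2 was so without knockout 3. They summed to 92.8 to 277 in the controls, 28.2 in knockout 3 and 137 to 199 in the other knockouts, within the range of the controls. Of 7 goblet markers 0 were called, 4 had a log2 fold change above 0, and the median was 0.10. Fcgbp (-2.24) and Zg16 (-5.05) were lower at an unadjusted p under 0.05, and neither was so without knockout 3, where Tff3 was (-0.82). The goblet markers summed to 1784 to 4288 in the controls, 4046 in knockout 3 and 1664 to 2209 in the other knockouts. The share of all tested genes with an unadjusted p under 0.05 was 6.88%, and 11.3% without knockout 3. The 5 immune markers summed to 4.50 to 13.98 and 2.18 to 12.9, and the 6 stromal markers, of which 0 were tested, to at most 1.15. Stem cells carry Ephb2. Pearson's r over the 8 libraries with the stem sum was 0.51 for Ephb2 and 0.87 for Epha4, and with the tuft sum 0.83 and 0.68. Epha4 was lowest in knockout 3, which had the lowest stem sum. That library also had 0 counts for 55 tested genes with at least 20 counts in each other library. The part of stem, tuft and other cells in the values of the members was not tested.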

How the data were processed

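RNA of 300 sorted cells per mouse was amplified by the Smart-seq2 protocol with PCR. Reads were aligned by the authors with GSNAP to mm10, and uniquely mapped reads were counted per gene with featureCounts 1.6.3 with the Ensembl 92 annotation. The deposited table holds these raw counts. The strand setting is not given in the sources used here. The labels' genotypes set the groups. Spike-in rows (92) were left out. TMM factors and robust quasi-likelihood fits were computed with edgeR 4.0.16 in R 4.3.3 for 13439 genes that passed filterByExpr (minimum count 10, minimum total 15), with p adjusted over all of them. The SE is the size of the log2 fold change over the square root of F. The common biological coefficient of variation was 0.376. Single genes were also tested with exact permutations of log2(normalized CPM + 1). Alternatives used limma 3.58.1, DESeq2 1.42.0, other scalings, filters and thresholds, and left out each library. The floor of 3 counts covers counting error only, whereas the 95% intervals of fold changes include the spread between mice. The scripts were tested on simulated data. Exon lengths are those given in the deposited count table.

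The members and lists were chosen with earlier results of these data known. All 10 members are named. In the family, partner and β-catenin target lists the genes called and those with the 6 smallest p are named. Marker genes and Ephb1, Ascl2, Olfm4 and Slc12a2 were named after their values were seen. One number occurs in the labels of a control and a knockout (replicates 4), and these were not paired.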

Additional observations from a re-analysis of the deposited data

Results flagged for a closer look

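Among 26 comparisons of 4 libraries with Dixon's criterion (gap of the extreme library to its neighbour, divided by the range), 3 passed, where chance gives about 1.3, and all 3 concern knockout 3. Its TMM factor was the lowest of the knockouts, with a gap of 0.8303 of the range. Its normalized CPM of Ephb3, which that factor scales, was the highest of the knockouts, with a gap of 0.896 of the range. The raw count of Ephb3 in it was 198, the lowest of the knockouts (198 to 240). Its mitochondrial percentage was the lowest, with a gap of 0.957 of the range. The part of this library's lower number of detected genes in the counts of 0 for Epha4 and Efnb2 was not tested.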

How the results depend on the processing

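The count of members called stayed at 0 under all 19 alternatives. An unadjusted p under 0.05 was reached by Efnb1 and Epha4 with no filter, by Efnb1 with the run as a term or without knockout 1, and by Ephb3 with total counts in place of TMM, a setting chosen after seeing the data, with edgeR adjusted p of at least 0.427. The 25 genes called overall became 290 with no filter, 13 with at least 10 counts in every library, 138 with DESeq2's Wald test, 95 with limma-voom, 15 without TMM factors and 38 at an adjusted p of 0.1 alone. Leaving out 1 library gave 10 to 152: 11, 12, 10 and 15 without controls 1 to 4, 11 without knockout 2 and 152 without knockout 3. The 2 called β-catenin targets became 8, 1, 6 and 7 with no filter, 10 counts in every library, DESeq2 and limma-voom, and leaving out 1 library gave 2 to 6, the 6 without knockout 3. Among the other family genes 1 was called with no filter (Ephb1, log2 fold change -4.46, edgeR adjusted p = 0.0218). The causes were not tested.

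The log2 fold change changed sign for Epha2 with upper-quartile scaling (-0.004), and with limma-voom for Efnb2 (0.43) and Efna1 (-0.21). Without TMM factors, where the median of all genes was 0.25, it did so for Ephb2 (0.008) and Efnb2 (0.28). With 1 library left out, Ephb4 ranged from -0.032 to 0.23, Epha1 from -0.10 to 0.42, Epha2 from -0.20 to 0.30, Efnb2 from -0.46 to 0.31 and Efna1 from -0.13 to 0.40. Ephb3, Epha4 and Efnb1 kept their sign in every alternative that tested them, and Ephb2 in all but that one, but with limma-voom some were smaller in size (-0.05 for Ephb2, 0.21 for Ephb3 and -0.66 for Epha4). The order of levels per kb was the same with a TPM-like scaling. No paired analysis was possible because the groups share fewer than 2 label numbers. With counts of 5 to 45 for Epha1 and Epha2, their 95% intervals include a 2-fold rise.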

Other observations

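The level of Efnb1 relative to Efnb2, each per kb of exon, was 1.65, 2.42, 2.31 and 3.89 in controls 1 to 4 and 1.46, 0.93 and 0.74 in knockouts 1, 2 and 4, all 3 below every control. Knockout 3 went the other way: with 17 Efnb1 and 0 Efnb2 counts its ratio was at least 11.25, with Efnb2 set at the floor of 3 counts in that library, above every control. The groups thus overlapped. The ratio was formed after its values were seen and was not tested.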
